A study of Mus musculus with 4 samples.

Results

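Synthetic spike-in RNAs carried 1304 of the 506952 positions that the deposited table lists as methylated cytosines in Tet2 knockout (KO) leukemia cells. The spike-in positions were chosen by the name of the sequence they lie on, ERCC or Cypridina, without use of any measured value. They lay on 47 sequences, 46 of the ERCC set and 1 named CypridinaLuciferase, and the other 505648 sites lay on 22 mouse chromosomes, the mitochondrial genome included. The study is of cultured mouse acute myeloid leukemia cells that carry NRAS and AE9a, a truncated AML1-ETO fusion. The labels name 2 Tet2 KO and 2 wild-type (WT) libraries, all of bisulfite-converted poly(A) RNA. The medium of both genotypes held 3 cytokines (50 ng/ml of SCF, and 10 ng/ml each of IL-3 and of IL-6) and the antibiotics G418 (1 mg/ml) and puromycin (2 µg/ml). How Tet2 was removed is not in the labels, and neither is the source of the replicates, whose spread may thus be technical only.

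ERCC controls are RNAs transcribed in vitro from plasmid templates and added to a sample at known amounts, and the Cypridina sequence is named for the luciferase of a marine ostracod. RNA made in this way from ordinary nucleotides holds no 5-methylcytosine. Bisulfite deaminates unmodified cytosine to uracil, while 5-methylcytosine is read as cytosine. A cytosine that survives on an unmodified control is therefore counted as residual non-conversion. This reading covers the strand of the named control RNA. Values given below over all spike-in sites also include sites on its complement, which is not the named RNA. Base pairing is known to slow the reaction, since bisulfite acts on single-stranded RNA. The sources used here do not give the step at which the controls were added, or the mix.

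The level of a site is the fraction of the reads used there that still showed a cytosine, averaged by the authors over the KO replicates with a call. With 0 columns of WT values and 0 columns of single libraries, the table allowed no comparison of KO with WT and no test over samples, and all values are descriptions. By its name the table keeps positions unique to the KO, and a position called in WT as well would be missing from it. Cytosines that were converted are not listed, so no conversion rate follows from these counts. The base sequences of the controls were not used here. Of 10 marker genes of myeloid leukemia cells, 8 had a listed site, among them the granule genes Mpo, Elane and Prtn3. The share of all genes with a listed site was not computed, so this count does not identify the cells. Ctsg and Ptprc had 0, which is no measure of their expression.

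Listed sites were spread over the 47 spike-in sequences that had any, rather than held by a few of them. Controls without a listed site do not appear here and could not be counted. The number per sequence ran from 1 to 79 with a median of 29, and 40 of the 47 sequences had at least 10. The 10 sequences with the most sites held 519 of them (39.8%). ERCC-00025 led with 79 sites between positions 133 and 1857, counted along the control RNA, at a median level of 0.5. ERCC-00035 followed with 68 sites (median level 0.515), then ERCC-00002 with 56 (0.545) and ERCC-00116 with 54 (0.583). ERCC-00112 had 48 sites (0.455), ERCC-00074 had 45 (0.4) and ERCC-00130 had 44 (0.396). ERCC-00092, ERCC-00042 and ERCC-00078 had 43, 42 and 40 sites, with median levels of 0.5, 0.4 and 0.405. ERCC-00079 also had 40, with a lower median coverage than ERCC-00078. At the other end, ERCC-00004, ERCC-00051, ERCC-00059 and ERCC-00095 had 1 site each.

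**Figure D1:**
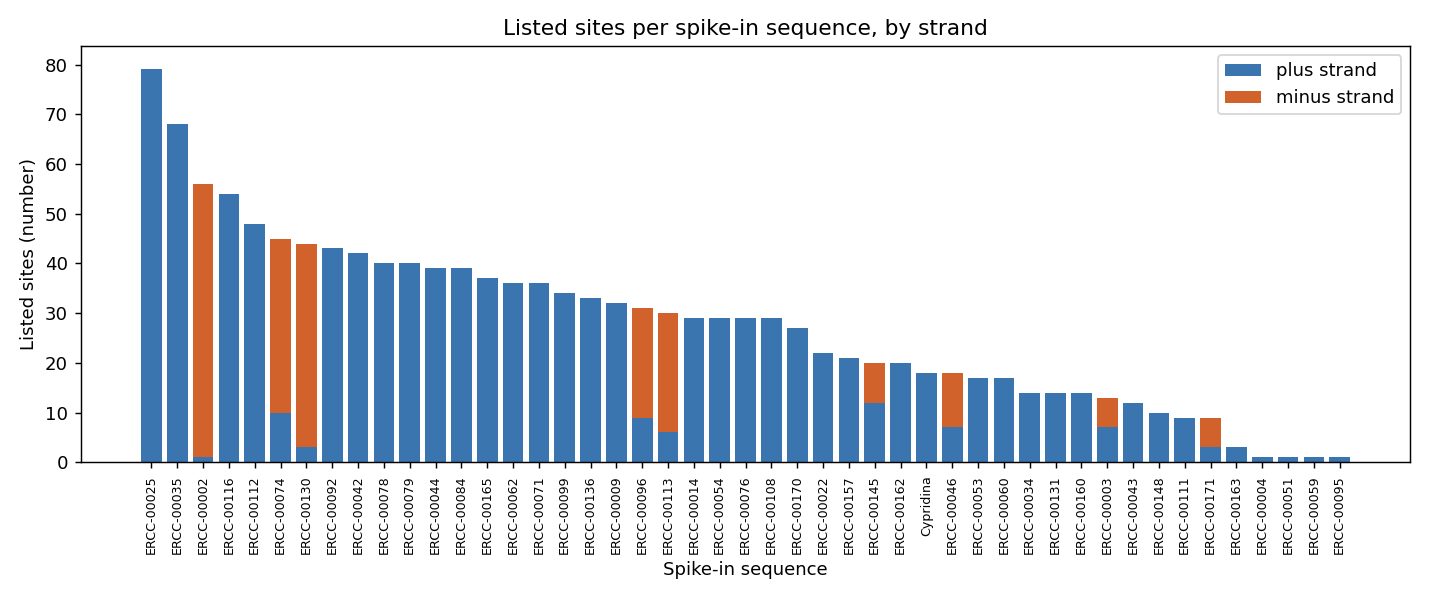
Number of listed sites on each of the 47 spike-in sequences (vertical axis), split into plus-strand (blue) and minus-strand (orange) sites, ordered by their number. ERCC-00025 has the most with 79, and minus-strand sites are seen on 9 sequences, of which ERCC-00002 has 55.

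The density of sites also differed between sequences. Between the first and the last listed position, sequences with 10 or more sites had 1.59 to 20 sites per 100 nt, with a median of 4.72. ERCC-00054 was the densest, with 29 sites between positions 69 and 213. ERCC-00003 was the sparsest, with 13 sites between 176 and 994. The Cypridina sequence had 18 sites, all between positions 245 and 413, at a median level of 0.625 and a median coverage of 13.5 reads. Of its 18 sites, 17 had another listed site within 10 nt and 5 were called in both KO replicates. Each of these values lay inside the range over the ERCC sequences with 10 or more sites.

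Of the 47 control sequences with a listed site, 38 had sites on the plus strand alone. The other 9 also had sites on the minus strand, the complement of the named sequence. Minus-strand sites made up 208 of the 1304 spike-in sites (16.0%), against 4553 of the 505648 other sites (0.900%). On a chromosome the minus strand need not be the complement of a transcript, so these shares are not like for like. On the 9 sequences they were 208 of 266 sites (78.2%). ERCC-00002 had 55 minus-strand sites and 1 plus-strand site, and ERCC-00130 had 41 and 3. ERCC-00074 had 35 minus-strand and 10 plus-strand sites, ERCC-00113 had 24 and 6, ERCC-00096 had 22 and 9, and ERCC-00046 had 11 and 7. ERCC-00171 had 6 and 3. Only on ERCC-00145, with 8 minus-strand and 12 plus-strand sites, and on ERCC-00003, with 6 and 7, did the plus strand have more.

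Coverage at listed sites differed between the strands of these 9 sequences. Minus-strand sites were covered by 10 to 41 reads with a median of 19, whereas plus-strand sites of the same 9 sequences were covered by 11 to 721 reads with a median of 31.5. The median coverage of listed sites was lower on the minus strand than on the plus strand in 8 of the 9 sequences. ERCC-00096 was the exception (16 against 15 reads). Some plus-strand medians rest on few sites, 1 on ERCC-00002 and 3 each on ERCC-00130 and ERCC-00171. Minus-strand sites had a median level of 0.5 (quartiles 0.354 and 0.636). Plus-strand sites of the same sequences had a median of 0.316 (quartiles 0.233 and 0.574). Within single sequences the order was mixed, as the minus strand had the higher median level in 5 of 9, the same in 1 and a lower one in the other three. ERCC-00074 showed a wide gap, with 0.454 on the minus strand and 0.221 on the plus strand. ERCC-00113 went the other way, with 0.434 on the minus strand and 0.678 on the plus strand. The most deeply covered minus-strand site was at position 746 of ERCC-00113, with 7 unconverted of 22 reads used and 41 covering (level 0.318, Wilson 95% interval 0.164 to 0.527). Plus-strand and minus-strand sites fell at the same position in 0 cases and within 5 nt of each other in 4.

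Minus-strand sites on the controls had higher levels and closer spacing than those elsewhere in the table. The strand label may not mean the same for both, since on a chromosome it need not mark the complement of a transcript. Their median level was 0.5, against 0.231 for the 4553 minus-strand sites outside the controls, and 13.5% of them lay below 0.3, against 74.5%. Another listed site lay within 10 nt for 86.1% of the control minus-strand sites, against 28.9% of the other minus-strand sites. Distances elsewhere run along whole chromosomes. Both replicates made the call at 23.6% of the control minus-strand sites, against 10.3% of the others. Median coverage was 19 reads on the control minus strand and 28 on the other, and the groups were not matched for it. At single calls the median share of reads used was 73.3% and 48.8%. The mitochondrial genome had 128 listed sites, 124 of them on the plus strand, with a median level of 0.271. These differences were not tested, since sites of 1 sequence share their source and no sample carries a value of its own.

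The levels of spike-in sites overlapped widely with those of all other listed sites, which include sites without a gene label. The median level was 0.5 (quartiles 0.333 and 0.651) over spike-in sites, against 0.527 (quartiles 0.364 and 0.7) over the other sites. A level of 1, with every read used unconverted, was listed at 21 spike-in sites (1.61%) on 16 sequences, against 3.95% of the other sites. A level below 0.3 was listed at 17.2% of spike-in sites, against 14.1% of the others. All listed levels start at 0.2, so both distributions lack their lower part. Among the 40 sequences with 10 or more sites, the median level ran from 0.286 to 0.682 with quartiles of 0.436 and 0.551, and it lay below 0.527 in 28 of them. Over 2801 genes with 10 to 79 sites, the quartiles of the median level were 0.5 and 0.586.

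ERCC-00148 had the highest median level, 0.682 over 10 sites, at a median coverage of 15 reads. ERCC-00003 and ERCC-00043 had the lowest, 0.286 each, at median coverages of 16 and 40.5 reads. The values of ERCC-00003 pool unlike strands. Its 7 plus-strand sites had a median coverage of 77 reads and a median level of 0.245. Its 6 minus-strand sites had 14.5 reads and 0.542. The highest level reached on ERCC-00043 was 0.476. The 4 sequences with a median coverage of 35 reads or more, among those with 5 or more sites, all had medians below 0.5. They were ERCC-00111 (44 reads, level 0.333), ERCC-00043, ERCC-00042 (36.5 reads, 0.4) and ERCC-00060 (35 reads, 0.444). ERCC-00022 and ERCC-00112 were next with 28.5 reads each and levels of 0.472 and 0.455. Across the 40 sequences with 10 or more sites, strands pooled, Spearman's rho between median coverage and median level was -0.34 and Pearson's r was -0.41. This is given as a description, since the level cannot fall below 0.2 and coverage enters its precision.

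Deeply covered sites had lower levels, on the controls and on the other sequences. At 10 to 14 covering reads, 252 spike-in sites had a median level of 0.5, against 0.545 for 158589 other sites. At 30 to 49 reads it was 0.455, against 0.486. At 50 to 99 reads it was 0.298 over 52 spike-in sites, against 0.435 over 20485 other sites, and 50.0% of these spike-in sites lay below 0.3, against 26.2%. At 100 or more reads it was 0.229 over 15 spike-in sites, against 0.422 over 2231 other sites. The spike-in median was the lower one in 6 of 6 coverage ranges. Weighted over these ranges by the number of spike-in sites, the difference in median level, spike-in minus other, was -0.0407. It was -0.0944 with at least 20 reads used and -0.0196 for sites called in both replicates, and it was not tested, since no sample carries a value of its own.

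**Figure D2:**
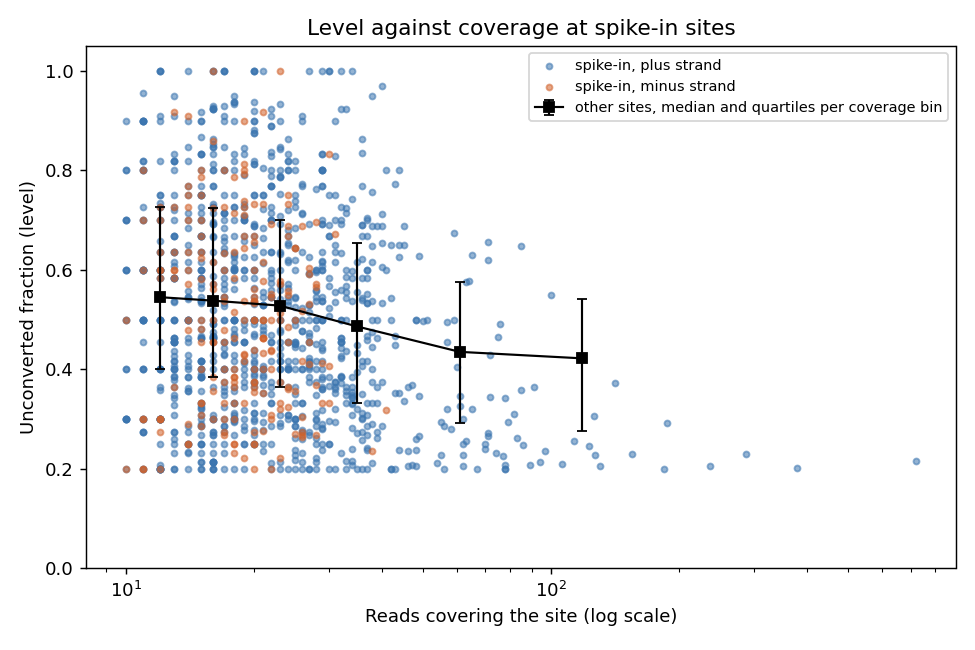
Level of each spike-in site (vertical axis, unconverted fraction) against the reads covering it (horizontal axis, log scale), for the plus strand (blue) and the minus strand (orange). Black squares and bars give the median and quartiles of the other sites in 6 coverage ranges, each at its median coverage. Spike-in levels fill the range from 0.2 to 1 up to about 40 reads, and at 100 or more reads their median is 0.229 against 0.422 for the other sites.

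The most deeply covered control positions stood close to the lower limit of the table. Position 286 of ERCC-00074 was covered by 721 reads, of which 321 were used and 69 were unconverted (level 0.215, Wilson 95% interval 0.174 to 0.263). Position 320 of the same sequence was covered by 379 reads, with 33 of 163 reads used unconverted (0.202, interval 0.148 to 0.271). Position 332 was called in both replicates at a level of 0.229 ± 0.0226 (SD, n = 2), with 288 covering reads as the authors' mean. Position 835 of ERCC-00002 had 20 of 97 reads used unconverted (0.206, interval 0.138 to 0.297). Position 122 of ERCC-00130 had 45 of 154 (0.292, interval 0.226 to 0.368). All 5 are on the plus strand of sequences that also had minus-strand sites. Of the 15 sites with 100 or more covering reads, 10 lay on such sequences and 12 had a level of at most 0.3. The intervals cover counting error only and treat each read as a separate molecule.

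Some well-read control positions had levels far above these. With 20 or more reads used, the highest was position 774 of ERCC-00084, where 22 of 22 reads were unconverted (Wilson 95% interval 0.851 to 1). Position 770, 4 nt upstream, had 31 of 32 (0.969, interval 0.843 to 0.994). Position 342 of ERCC-00112 had 25 of 29 (0.862), position 282 of ERCC-00062 had 24 of 29 (0.828) and position 22 of ERCC-00113 had 16 of 20 (0.8). Each was called in 1 replicate. Among single-call sites with at least 20 reads used, 134 spike-in sites had a median level of 0.355, against 0.48 for 74188 other sites. With at least 50 reads used it was 0.314 over 18 spike-in sites with a maximum of 0.655, against 0.474 over 8400 other sites with a maximum of 1.

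The listed control sites also give a level beside which the other sites can be set. Control cytosines that were not listed do not enter, so it does not describe unmethylated cytosines as a whole. The 95th percentile of the spike-in level was 0.9 at 10 to 14 covering reads, 0.904 at 15 to 19, 0.875 at 20 to 29, 0.834 at 30 to 49 and 0.638 at 50 to 99. The share of other sites above it was 9.17%, 8.41%, 9.10%, 7.84% and 15.9% in the same ranges. The 5 ranges together gave 9.05%, and 8.18% with plus-strand sites alone. By construction about 5% of the spike-in sites or fewer lie above, since levels tied with the percentile do not count. The percentile at 50 to 99 reads rests on only 52 spike-in sites. The range of 100 or more reads held only 15 spike-in sites and was left out of this share.

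Reads set aside before the level was computed differed between the kinds of sequence at high coverage. At sites called in 1 replicate, the reads used can be recovered from the level. They were 76.9% of the covering reads at the median over 987 spike-in sites (quartiles 53.9% and 84.9%), against 82.6% over 433738 other sites (quartiles 68.4% and 88.2%). At 10 to 14 covering reads both medians were 90.9%. At 30 to 49 reads spike-in sites had a median of 40.5% with quartiles of 34.5% and 80.6%, and other sites a median of 80.0% with quartiles of 40% and 82.9%, so the quartile ranges largely overlapped. At 50 to 99 reads it was 51.6%, against 80.8%. Fewer than 50% of the covering reads were used at 18.7% of the single-call spike-in sites, against 10.4% of the others. On the controls this share was 5.66% on the minus strand and 21.3% on the plus strand. The sources used here do not say what removed these reads.

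**Figure D3:**
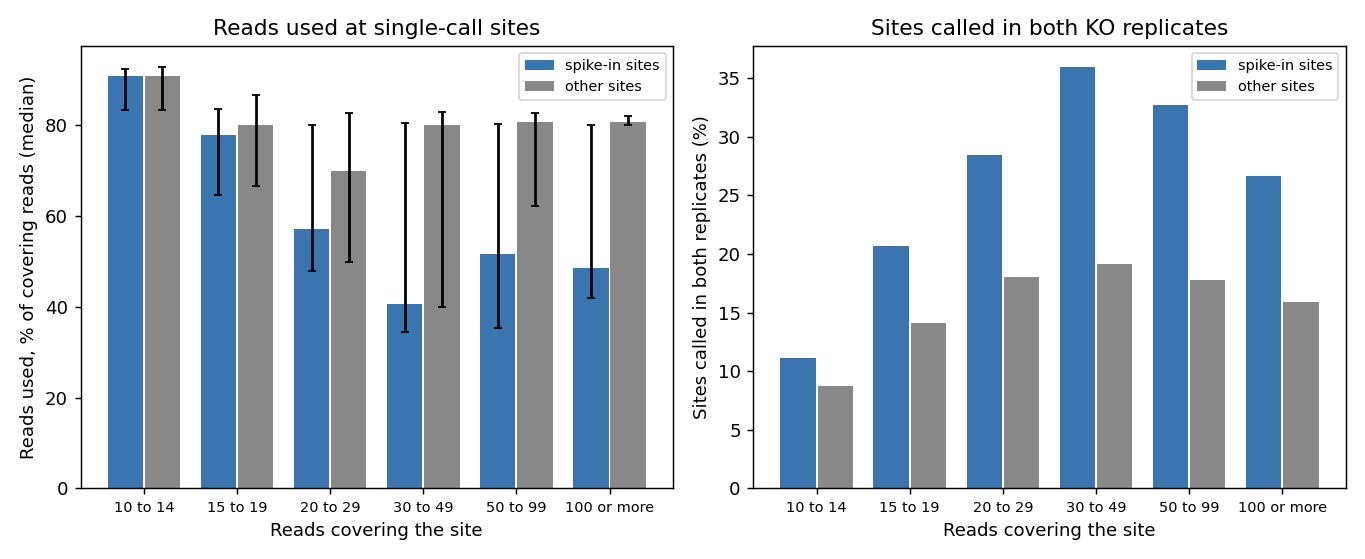
Left, reads used for the level as a percentage of covering reads at sites called in 1 replicate, as the median (bars) and quartiles (lines), by coverage range. Right, percentage of sites called in both KO replicates by coverage range. Blue bars are spike-in sites and grey bars other sites. Spike-in medians of reads used lie below those of other sites from 15 to 19 reads upward, and spike-in sites are called in both replicates more often in each range.

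Calls in both replicates made up a larger share of the spike-in sites. Both KO replicates called 317 of 1304 spike-in sites (24.3%, Clopper-Pearson 95% interval 22.0% to 26.7%), where 14.2% of all listed sites had such a call. By coverage, the share was 11.1% at 10 to 14 reads, against 8.75% of other sites, and 28.4% at 20 to 29 reads, against 18.0%. It was 36.0% at 30 to 49 reads (interval 29.4% to 43.0%), against 19.1%, and it was the higher one in 6 of 6 ranges. The interval held the value of the other sites at 10 to 14 reads (7.51% to 15.7%) and at 100 or more reads (7.79% to 55.1%, against 15.9%). Of the 40 sequences with 10 or more sites, 34 had a share above 14.2%. ERCC-00076 had the highest, 14 of 29 sites (48.3%), and ERCC-00022 had 10 of 22. ERCC-00148 and ERCC-00160 had 0 of 10 and 0 of 14. In all, 41 of the 47 sequences had at least 1 site called in both. The intervals cover counting error only, and sites of 1 sequence are not independent.

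Where both replicates made a call, the median absolute difference between their levels was 0.084 at 101 spike-in sites with 10 to 19 covering reads, 0.133 at 122 sites with 20 to 29 and 0.082 at 94 sites with 30 or more. It did not shrink steadily with coverage. Among the most deeply covered of these sites, all with levels near 0.2, the level was 0.229 ± 0.00283 (SD, n = 2) at position 298 of ERCC-00046 and 0.228 ± 0.0113 at position 309. It was 0.21 ± 0.00283 at position 366 of ERCC-00111. Over the 317 sites, the absolute difference between the replicates had a median of 0.098, the 90th percentile was 0.283 and the largest difference was 0.514. Over 71910 other sites called in both, the median was 0.1 and the largest difference was 0.8. Sites called in both and in 1 replicate had similar levels on the controls, with medians of 0.497 and 0.5, at median coverages of 24 and 19 reads. Sites that failed the call in either replicate do not enter, so these differences understate the spread between libraries.

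Sites on the controls stood close together. The median distance to the nearest listed site on the same strand was 4 nt, against 5 nt for other sites. A neighbour within 10 nt was found for 1056 spike-in sites (81.0%), against 70.2% of the other sites. A directly adjacent listed position was found for 248 of the 1304 spike-in sites, against 17.6% of the other sites. Of the 40 sequences with 10 or more sites, 35 had a share above 70.2%. The range ran from 46.2% on ERCC-00003 to 97.3% on ERCC-00165. Distances on the mouse chromosomes are in genome coordinates and include introns, whereas the control sequences have none.

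**Figure D4:**
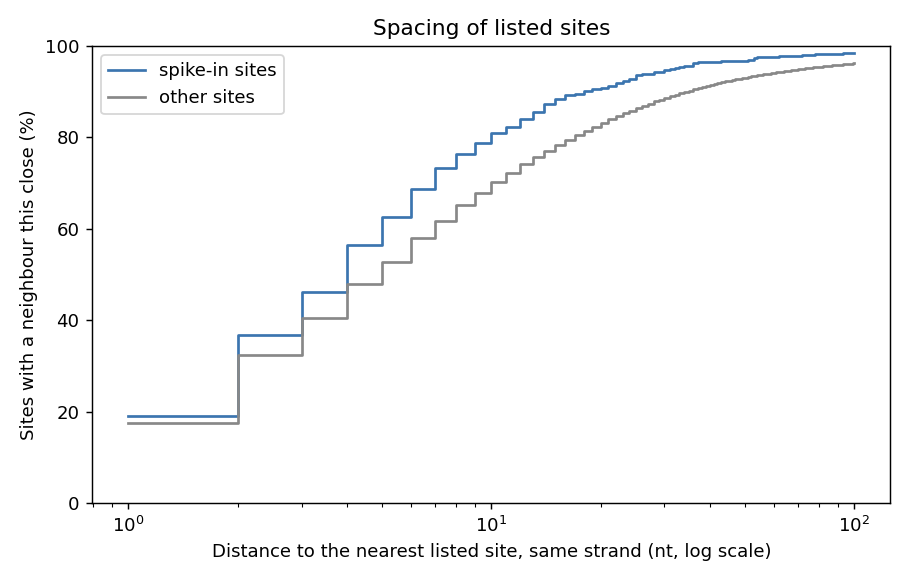
Cumulative percentage of sites (vertical axis) whose nearest listed site on the same strand lies within the distance on the horizontal axis (nt, log scale), for spike-in sites (blue) and other sites (grey). At 10 nt the curves stand at 81.0% and 70.2%.

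Joining sites no more than 10 nt apart gave 288 runs of 2 or more sites and left 248 single sites. Runs of 5 or more numbered 67 and held 476 sites (36.5%). The longest in sites was on the minus strand of ERCC-00002, with 18 sites in the 74 nt between positions 51 and 124. They were covered by 17 to 28 reads, and their levels ran from 0.324 to 0.71 with a median of 0.555. Both replicates called 12 of the 18. Within this run the level was 0.71 ± 0.0255 (SD, n = 2) at position 65 and 0.333 at the directly adjacent position 66, a single call with 4 of 12 reads unconverted (Wilson 95% interval 0.138 to 0.609). At position 86 both replicates gave 0.5, and at position 90 the level was 0.572 ± 0.201. Runs of 17 sites were found on the plus strand of ERCC-00071 between 383 and 476 and of ERCC-00054 between 115 and 160, with median levels of 0.5 and 0.474. The minus strand of ERCC-00074 had a run of 14 sites between 156 and 218 (median level 0.435).

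Listed levels of neighbouring control sites often differed, but counting error was not separated from these differences. Single-call spike-in sites rested on a median of only 12 reads used. The absolute difference in level between directly adjacent sites had a median of 0.139 over 137 pairs, against 0.225 over 148 pairs of consecutive sites 31 to 100 nt apart. At 2 to 3 nt it was 0.187 and at 4 to 10 nt 0.156, so it did not climb evenly with distance. Among other sites, directly adjacent pairs differed by 0.2 at the median and pairs 31 to 100 nt apart by 0.201. Control sites without a neighbour within 10 nt had a median level of 0.455, against 0.5 for those with one, at median coverages of 24 and 20 reads.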

How the data were processed

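The deposited table, in mm10 coordinates per the submitters' processing notes, lists positions for the KO replicates combined; the sources used here name no aligner and no caller. Covering and unconverted reads are whole-number scores deposited by the authors, the reads of 1 library at a single call and a rounded mean at a call in both; scaled versions were not used. The level is the authors' fraction of unconverted reads, and the p-values, combined over replicates, are as deposited. Single-call levels gave whole reads used in 100% of 987 spike-in sites (tolerance 0.0006). The deposited spread, a score, was read as a population SD, which gave whole reads (tolerance 0.0012) at 79.7% of 138 spike-in sites against 1.45% with the other divisor, and printed SDs are sample SDs. At calls in both replicates, the reads used were approximated as unconverted reads over the level.

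The table held 0 columns from other series. Library totals were not used here; the design text plans 70000000 reads per sample. Coverage at spike-in sites ran from 10 to 721 reads (quartiles 15 and 28), and intervals are at 95%. Sites were compared in 6 coverage ranges with the spike-in numbers as weights, in Python 3.11.15 with pandas 2.3.3 and scipy 1.17.1. Simulated data checked only that a planted shift in level was recovered. Coverage there did not differ between groups or affect the level, so the correction for coverage was not tested. Named were the 10 sequences with the most sites, the 5 with the highest median coverage among those with 5 or more sites, those of highest and lowest median level, Cypridina, every sequence with a minus-strand site, the 5 highest sites at 20 or more reads used, the 5 deepest sites and the longest run; others were named after their values were seen. The members and lists were chosen with earlier results of these data known.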

Additional observations from a re-analysis of the deposited data

How the results depend on the processing

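The level difference at matched coverage, -0.0407, kept its sign under all 9 alternatives tried for it. It moved by over 1.5 times under 2 of them, to -0.0944 with at least 20 reads used and to -0.0196 for sites called in both replicates, and lay between -0.0605 and -0.0303 under the others. Leaving out ERCC-00025 gave a median level of 0.492, a difference of -0.0402 and 9.19% of other sites above the 95th percentile. It gave 24.1% called in both replicates and 80.7% with a neighbour within 10 nt. Leaving out the 9 sequences with minus-strand sites was chosen as an alternative after seeing the data. It gave a median level of 0.5, a difference of -0.0303, 24.8% called in both and 81.2% with a neighbour. At least 20 covering reads left 699 spike-in sites, 30.9% called in both replicates, 73.4% with a neighbour within 10 nt, a median of 27 reads and 9.37% of other sites above the percentile. At least 30 reads left 270 sites, a median level of 0.391, 34.8% in both, 53.3% with a neighbour, a median of 37 reads and 9.76% above. At least 20 reads used left 165 sites, a level of 0.348, 18.8% in both, 32.1% with a neighbour, 36 reads and 9.94% above. A state p-value of at most 1e-06 gave 27.2% in both, 78.3% with a neighbour and 9.33% above. Sites called in both replicates numbered 317, with 49.8% having a neighbour, 24 reads and 10.6% above. A neighbour distance of 5 nt gave 62.5% and of 20 nt 90.9%. Matching on reads used gave 10.4% above, and plus-strand sites alone 8.18%. Filters that remove sites also remove neighbours; the other causes were not tested. No replicate could be left out, and no paired analysis was possible because the table used here gives no values for single libraries or for WT. Coverage limits the upper ranges, with 15 spike-in sites at 100 or more reads.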
